A study of Mus musculus with 9 samples.

Results

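The genes of cholesterol and fatty acid synthesis, with their regulators and sterol export genes, were followed across 3 groups of mouse CD4 T cells. The members were a list of 36 gene symbols, matched by symbol with no measured value in the rule, and 35 of them had a named probe set on the array, of 18193 genes measured in all. Array values of Acat2 were not analysed here. Where a gene had several probe sets, that with the highest mean over the 9 arrays stood for it. Probe sets of the _x_at kind, which can cross-hybridise, were used only where there was no other. No other kind was held back, and Mvd and Lss were read from _s_at probe sets.

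RNA came from 9 Affymetrix whole-genome arrays, 3 each for Tconv (conventional T cells), purTGFβ_iTreg and pltTGFβ_iTreg, where iTreg stands for regulatory T cells induced in culture. The mice carried an EGFP reporter of Foxp3, the transcription factor of regulatory T cells, on the C57BL/6 (B6) background, and EGFP-negative CD4 cells sorted from spleen were the starting cells. Cultures for iTreg ran for 72 hours on a coat of anti-CD3 (2.5 µg/ml), in 10% serum with IL2 at 100 U/ml and anti-CD28 at 1 µg/ml. The purTGFβ_iTreg cultures had purified TGFβ1 at 5 ng/ml, and the pltTGFβ_iTreg cultures had TGFβ from a freeze-thaw lysate of platelets from wild type C57BL/6 mice, whose final TGFβ1 amount is not given in the sources used here. The treatment of the Tconv cells is not settled: the same entry on every sample describes Tconv culture with TGFβ1 at 5 ng/ml. Ages of the mice, pooling of animals and any sorting after culture are not given in those sources either.

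Cells build cholesterol from acetyl-CoA through mevalonate, the isoprenoids and squalene, and build fatty acids from the same precursor with fatty acid synthase, elongases and desaturases. The genes of both routes are switched on by the SREBP transcription factors, which SCAP carries from the endoplasmic reticulum to the Golgi when sterol is scarce and INSIG proteins hold back when it is plentiful. LXR receptors answer the opposite state: oxysterols activate them and they raise sterol export. Activated T cells draw on both synthetic routes to make new membrane.

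On all arrays the T cell transcripts were bright. The mean log2 level of 6 T cell genes (Cd3d, Cd3e, Cd3g, Cd4, Cd5 and Thy1) lay in the range 10.59 to 10.81 in Tconv, 10.19 to 10.31 in purTGFβ_iTreg and 10.36 to 10.41 in pltTGFβ_iTreg, with Cd4 and Cd5 called lower in both iTreg groups than in Tconv. The corresponding means of 5 B cell genes, 7 myeloid genes, 4 CD8 or NK genes, 7 platelet genes and 3 erythroid genes lay between 3.41 and 5.4 on every array. Among these, Cd79b, Cd8b1, Itgb3, Itga2b and Klf1 were lower and Klrd1 higher in both iTreg groups than in Tconv, and between the iTreg groups Itgb3 was higher (1.75) and Klrd1 lower (-1.27) with lysate. Single genes stood above the list means. Klrd1 averaged 7.34 in purTGFβ_iTreg, and in Tconv Itgb3 averaged 7.29, Cd8b1 6.75, Itga2b 6.75 and Cd79b 6.02. The platelet chemokine genes Pf4 and Ppbp read 3.30 and 2.70 with lysate, 3.05 and 2.46 with purified TGFβ and 3.32 and 2.76 in Tconv. Each was 0.25 higher with lysate than with purified TGFβ, which did not pass. Of 7 proliferation genes, 4 were higher in purTGFβ_iTreg and 5 in pltTGFβ_iTreg than in Tconv, beside 14.5% and 13.9% of all genes. None differed between the iTreg groups, where 2.57% of all genes were lower and 1.54% higher with lysate. The part of these marker and proliferation genes in the results below was not tested. Xist, the RNA of the silenced X chromosome, read 10.81 in Tconv, 3.61 in purTGFβ_iTreg and 3.94 in pltTGFβ_iTreg, and the Y-linked Eif2s3y read 2.70, 9.01 and 8.95. By these transcripts the sex of the mice differed between Tconv and both iTreg groups and cannot be told apart from the culture in any comparison with Tconv, whereas none of the 4 transcripts read for sex (Xist, Eif2s3y, Kdm5d and Uty) passed the test between the iTreg groups.

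**Figure D1:**
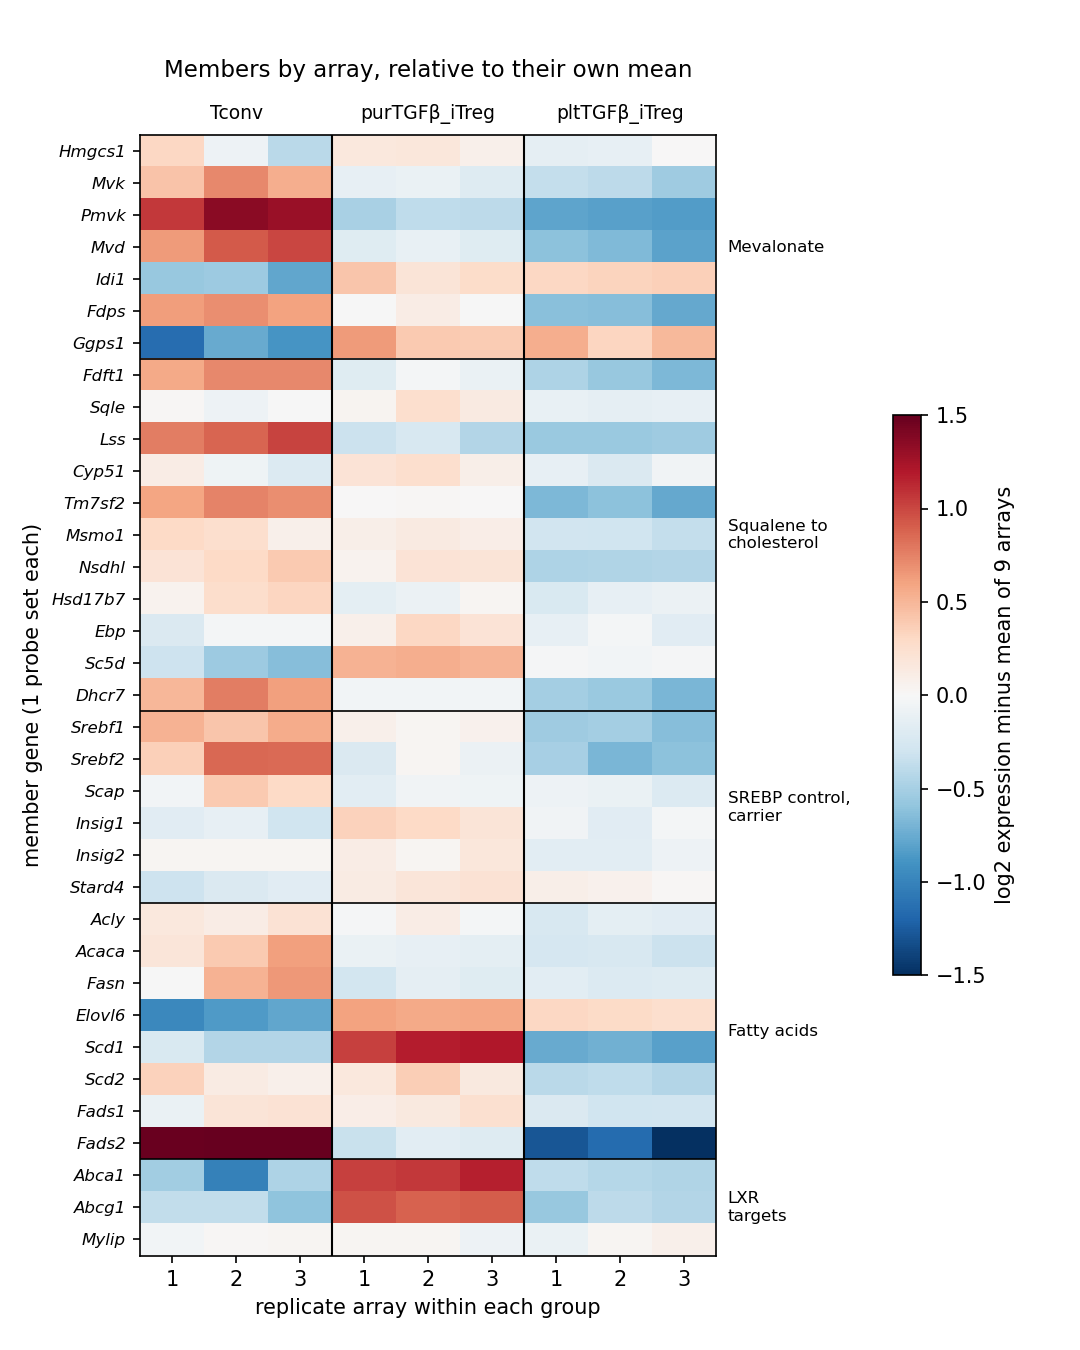
Each row is a member gene and each column an array (replicates 1 to 3 of Tconv, purTGFβ_iTreg and pltTGFβ_iTreg), coloured by log2 expression minus that gene's mean over the 9 arrays, with colours capped at 1.5 in either direction. Most rows are blue, below the gene's own mean, on the pltTGFβ_iTreg arrays, while Idi1, Ggps1 and Elovl6 are low on the Tconv arrays and Scd1, Abca1 and Abcg1 are high only on the purTGFβ_iTreg arrays.

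The members were first set against Tconv, to ask how lipid synthesis transcripts in each iTreg culture compared with conventional T cells. With purified TGFβ 12 of the 35 members fell and 7 rose, where 14.9% of all genes were called lower and 14.5% higher. With lysate 16 fell and 3 rose, beside 14.7% and 13.9% of all genes. A gene was called when the adjusted p was under 0.1 and the log2 change was beyond 0.5, the cutoffs that the series itself used. The median log2 change of the members was -0.10 with purified TGFβ and -0.37 with lysate, and that of all genes was -0.17 and -0.16. Mean levels lay below Tconv for 19 of the 35 members with purified TGFβ (54.3%, beside 69.8% of all genes). With lysate they did so for 28 members (80%, beside 68.2% of all genes). Both comparisons use the same Tconv arrays, so their values are given side by side and are not independent of each other. Quantile normalization of the deposited values moved the share of higher genes among all genes called from 49.3% to 38.6% with purified TGFβ and from 48.5% to 38.4% with lysate, and under it 14 members fell and 7 rose with purified TGFβ and 19 fell and 3 rose with lysate. Centring the array medians moved that share the other way, to 56.5% and 55.3%, and under it 11 members fell and 8 rose with purified TGFβ and 15 fell and 4 rose with lysate.

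**Figure D2:**
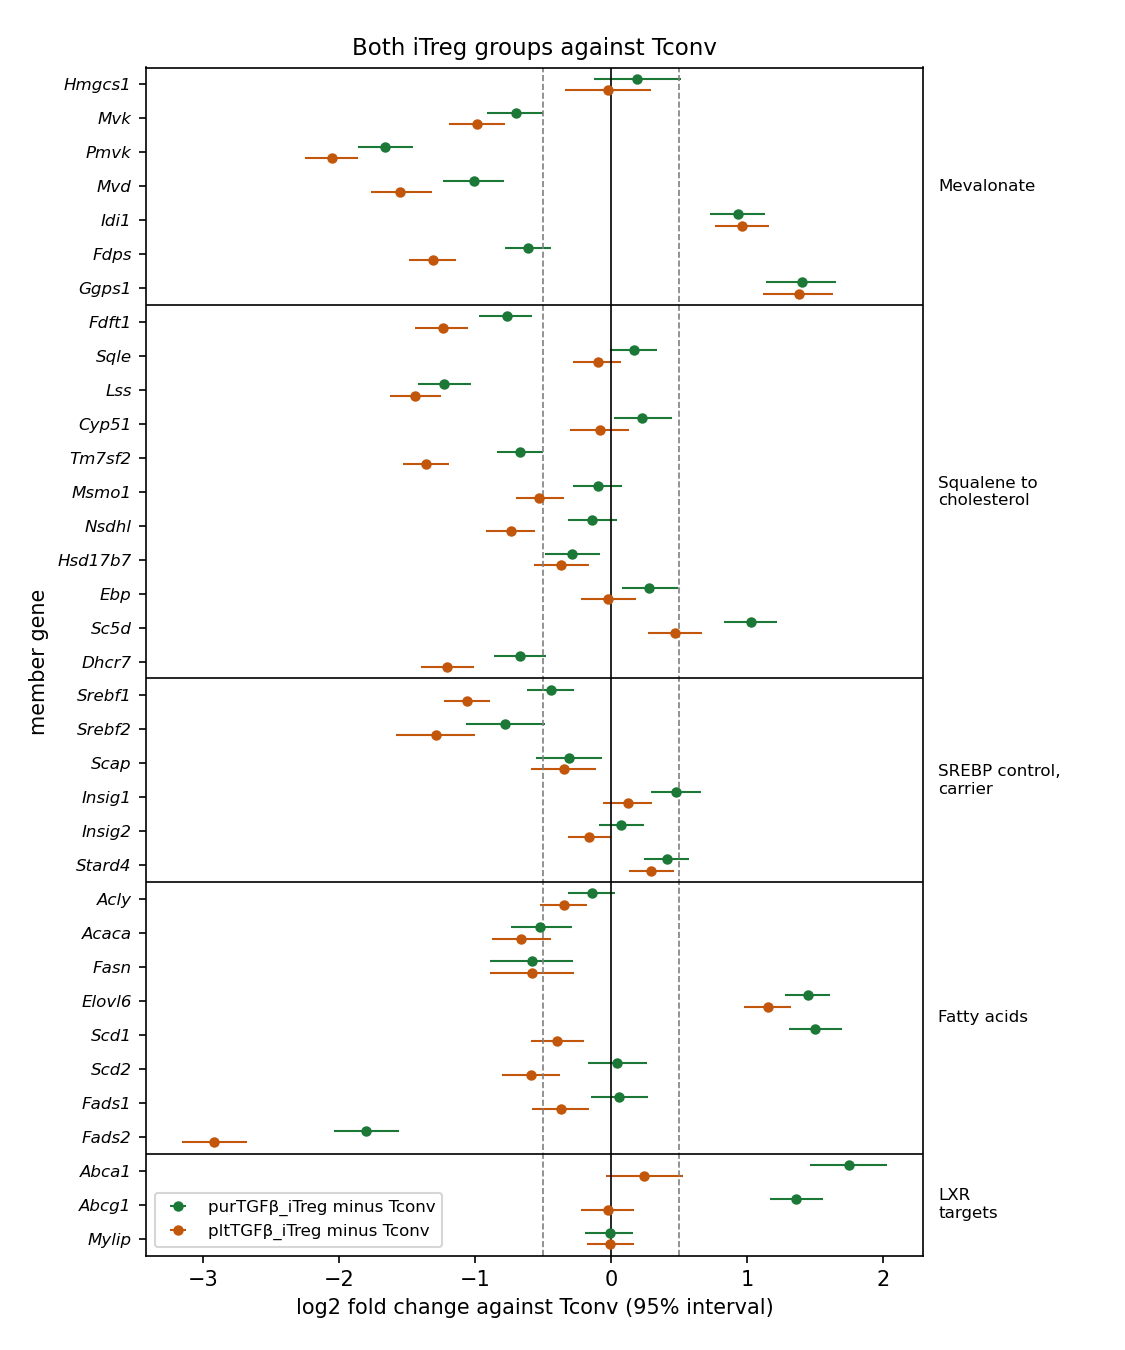
Points are log2 fold changes of each member against Tconv with 95% intervals, in green for purTGFβ_iTreg and in orange for pltTGFβ_iTreg (n = 3 arrays a group), and dashed lines mark 0.5 in either direction. Pmvk and Fads2 lie farthest to the left in both comparisons, Ggps1, Idi1 and Elovl6 lie to the right in both, and the green and orange points of Scd1, Abca1 and Abcg1 are far apart.

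In the mevalonate arm, 4 of the 7 measured genes fell and 2 rose, with purified TGFβ and with lysate alike. Of all genes, 14.9% fell and 14.5% rose with purified TGFβ, and 14.7% fell and 13.9% rose with lysate. Pmvk, the kinase that makes mevalonate diphosphate, read 10.26, 10.55 and 10.49 on the Tconv arrays, 8.71, 8.81 and 8.80 with purified TGFβ and 8.40, 8.38 and 8.36 with lysate. Every iTreg array lay below every Tconv array. The fall was 3.16-fold with purified TGFβ (log2 change -1.66 ± 0.09, SE, adjusted p = 4.78e-08) and 4.15-fold with lysate (-2.05 ± 0.09, adjusted p = 1.44e-08). Mvd, whose product decarboxylates mevalonate diphosphate to the first isoprenoid, read 9.23, 9.52 and 9.60 in Tconv, 8.41, 8.48 and 8.41 with purified TGFβ and 7.98, 7.93 and 7.79 with lysate. The 3 groups did not overlap, and Mvd fell by 1.01 and by 1.55 on the log2 scale against Tconv (adjusted p = 7.91e-06 and 2.90e-07). Fdps, which joins isoprenoids into farnesyl diphosphate, read 12.37, 12.44 and 12.35 in Tconv, 11.74, 11.85 and 11.74 with purified TGFβ and 11.12, 11.11 and 10.98 with lysate. It likewise stepped down without overlap, by 0.61 with purified TGFβ and by 1.31 with lysate (SE 0.08 for both, adjusted p = 5.56e-05 and 1.29e-07). Mvk, mevalonate kinase, fell by 0.70 and by 0.99 on the same scale.

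The other 3 genes of the arm did not fall. Idi1, the isomerase between the isoprenoid units, rose 1.9-fold with purified TGFβ (10.39 ± 0.13 in Tconv and 11.32 ± 0.11, SD, n = 3) and 1.95-fold with lysate (11.35 ± 0.02). Ggps1, which makes geranylgeranyl diphosphate for protein prenylation rather than sterol, rose 2.63-fold and 2.6-fold from 6.14 ± 0.20 in Tconv. Its other 3 probe sets were called higher as well, by 0.59 to 0.87 with purified TGFβ and 0.65 to 0.82 with lysate on the log2 scale. The second Idi1 probe set read 9.09 in Tconv and did not pass (0.48 and 0.25). Hmgcs1, HMG-CoA synthase, did not pass: its log2 change was 0.19 (95% interval -0.13 to 0.51) with purified TGFβ and -0.02 (-0.34 to 0.29) with lysate, and its Tconv arrays spread from 10.56 to 11.27. Other Hmgcs1 probe sets did not settle it, since 1 was called higher with purified TGFβ (0.50) and another lower with lysate (-1.14).

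Between squalene and cholesterol, 4 of 11 genes fell and 1 rose with purified TGFβ, beside 14.9% and 14.5% of all genes. With lysate 6 fell and none rose, beside 14.7% and 13.9%. Lss, the cyclase that folds squalene epoxide into lanosterol, read 9.93, 10.04 and 10.18 in Tconv, 8.84, 8.92 and 8.72 with purified TGFβ and 8.61, 8.61 and 8.63 with lysate. No iTreg array reached the Tconv range, and Lss fell 2.34-fold and 2.71-fold (log2 SE 0.09, adjusted p = 4.33e-07 and 1.46e-07). Its other probe sets were called lower by less, 1.73-fold and 1.54-fold with purified TGFβ and 1.69-fold and 1.94-fold with lysate. Fdft1, squalene synthase, read 10.54, 10.70 and 10.70 in Tconv, 9.79, 9.95 and 9.87 with purified TGFβ and 9.51, 9.41 and 9.30 with lysate. The falls were 1.71-fold and 2.37-fold (adjusted p = 2.21e-05 and 4.91e-07). Tm7sf2, a sterol reductase, read 7.98, 8.13 and 8.08 in Tconv, 7.39, 7.40 and 7.39 with purified TGFβ and 6.71, 6.77 and 6.62 with lysate. Its 3 groups were separate, with falls of 1.59-fold and 2.57-fold (adjusted p = 2.54e-05 and 9.41e-08). Dhcr7, which acts late, reducing a ring double bond, fell 1.59-fold and 2.31-fold from 8.38 ± 0.14 in Tconv.

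The remaining genes of this arm passed in 1 of the comparisons with Tconv or in neither. Msmo1 and Nsdhl, which remove methyl groups from the sterol ring, fell by 0.53 and by 0.74 with lysate, and with purified TGFβ their changes were -0.10 and -0.14 and did not pass. Without Tconv replicate 1 the Msmo1 value was -0.48, inside the fold cutoff. Sc5d, the sterol desaturase, was the riser, 2.04-fold with purified TGFβ (9.85 ± 0.17 in Tconv and 10.88 ± 0.02), and its change with lysate was 0.47 ± 0.09, short of the fold cutoff. That call depended on the setting: a second Sc5d probe set was called higher with lysate (0.79), and the first was called with array medians centred (0.53), with array weights (0.51) and without Tconv replicate 1 (0.57). Sqle, the squalene epoxidase that is often rate-limiting, did not pass in either comparison (0.17, 95% interval -0.01 to 0.34, and -0.10, interval -0.28 to 0.07). Cyp51, Hsd17b7 and Ebp did not pass either, with log2 changes between -0.37 and 0.28. Another Cyp51 probe set, which read 5.06 in Tconv, was called higher with purified TGFβ (0.57). Nsdhl and Ebp lie on the X chromosome, so the sex of the mice bears on their comparisons with Tconv in particular.

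SREBP factors bind a sterol regulatory element next to boxes for NF-Y and Sp1, and promoters of these genes are shown because genes of the same arm moved in opposite directions. The stretches are the 160 bases before the start site, read 5′ to 3′ from RefSeq promoters of build GRCm38.p6. Hmgcs1, which did not pass, lies at chr13:119690191-119690350 (plus strand), and the genes that fell, Mvd, Lss and Tm7sf2, at chr8:122443423-122443582 (minus), chr10:76531445-76531604 (plus) and chr19:6067851-6068010 (minus). The risers Ggps1 and Idi1 lie at chr13:14063489-14063648 (minus) and chr13:8885446-8885605 (plus). Capitals mark the sterol regulatory element TCACNCCAC, the NF-Y box CCAAT and the GC box GGGCGG, on either strand.
Hmgcs1: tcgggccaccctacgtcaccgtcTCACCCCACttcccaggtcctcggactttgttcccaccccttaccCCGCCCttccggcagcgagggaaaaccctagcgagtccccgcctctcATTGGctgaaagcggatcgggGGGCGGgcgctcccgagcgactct
Mvd: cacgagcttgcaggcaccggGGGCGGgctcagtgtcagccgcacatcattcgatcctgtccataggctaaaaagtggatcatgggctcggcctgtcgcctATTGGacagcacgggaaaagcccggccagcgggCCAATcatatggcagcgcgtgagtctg
Lss: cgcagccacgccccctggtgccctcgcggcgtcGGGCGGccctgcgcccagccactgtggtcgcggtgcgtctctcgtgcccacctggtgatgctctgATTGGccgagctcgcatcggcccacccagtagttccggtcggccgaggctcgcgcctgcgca
Tm7sf2: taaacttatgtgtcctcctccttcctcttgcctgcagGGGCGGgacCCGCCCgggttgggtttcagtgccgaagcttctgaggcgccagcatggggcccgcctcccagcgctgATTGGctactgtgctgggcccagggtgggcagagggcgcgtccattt
Ggps1: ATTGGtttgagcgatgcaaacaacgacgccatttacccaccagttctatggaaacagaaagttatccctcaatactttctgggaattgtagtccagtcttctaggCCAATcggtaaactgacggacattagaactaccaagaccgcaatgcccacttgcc
Idi1: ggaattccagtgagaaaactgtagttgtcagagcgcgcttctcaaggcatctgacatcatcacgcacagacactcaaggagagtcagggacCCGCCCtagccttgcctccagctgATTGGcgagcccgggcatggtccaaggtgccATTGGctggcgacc
The exact sterol element was found at position -137 of Hmgcs1. All 6 promoters hold at least 1 NF-Y box, risers and fallers alike, and Ggps1 alone among them holds no GC box.

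Over whole windows of 300 bases (250 before and 50 after the start), 28 members (Acat2 included) had 36 promoters in the table, among 32851 promoters in all. The NF-Y box was present in 63.9% of the members' promoters and 37.4% of all promoters, and the GC box in 75% and 35.7%. The exact sterol element was present in 1 member promoter, that of Hmgcs1 (2.78%, against 1.24% of all). The E-box CACGTG was present in 19.4% of member promoters and 7.15% of all. The LXR response element, searched as an exact direct repeat, was in 0 of the members' 36 promoters and in 0.0152% of all. Matches on both strands were counted, overlapping matches included. These are matches of letters and were not tested, and they show no binding.

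Among the SREBP regulators, 1 of 6 genes fell with purified TGFβ and 2 with lysate, and none rose. Beside them 14.9% and 14.7% of all genes fell, and 14.5% and 13.9% rose. The count that fell with purified TGFβ (16.7%) was thus close to the general share. Srebf2, which encodes the SREBP of cholesterol genes, read 9.41, 9.92 and 9.90 in Tconv, 8.84, 9.08 and 8.97 with purified TGFβ and 8.55, 8.37 and 8.44 with lysate. The groups did not overlap, and the falls were 1.72-fold and 2.45-fold (log2 change -0.78 ± 0.13 and -1.29 ± 0.13, SE, adjusted p = 4.60e-04 and 8.49e-06). Srebf1, which encodes the SREBP more tied to fatty acid genes, read 9.87, 9.77 and 9.91 in Tconv, 9.43, 9.38 and 9.42 with purified TGFβ and 8.82, 8.84 and 8.71 with lysate. It fell 2.09-fold with lysate (adjusted p = 5.95e-07). With purified TGFβ its adjusted p was 6.02e-04 but its change, -0.44 ± 0.08, was inside the fold cutoff.

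The INSIG genes, whose products hold SREBP back, did not pass at the probe sets that stood for them. Insig1, itself a classic SREBP target, read 8.09, 8.13 and 7.96 in Tconv, 8.60, 8.56 and 8.45 with purified TGFβ and 8.21, 8.09 and 8.23 with lysate. The purified-TGFβ arrays all stood above the Tconv arrays, by 0.48 on average (95% interval 0.29 to 0.66), short of the fold cutoff. Insig2 read 8.26 on all 3 Tconv arrays, 8.34, 8.26 and 8.41 with purified TGFβ and 8.08, 8.08 and 8.16 with lysate, and did not pass, whereas its 2 other probe sets were called higher with purified TGFβ (0.67 and 0.68). Scap changed by -0.31 and -0.35 and the sterol carrier gene Stard4 by 0.41 and 0.29, neither past the fold cutoff. Other Stard4 probe sets were called higher, by 0.55 and 0.98 with purified TGFβ, and 1 of them with lysate (0.77).

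Fatty acid genes moved in both directions: 3 of 8 fell and 2 rose with purified TGFβ, beside 14.9% and 14.5% of all genes. With lysate 4 fell and 1 rose, beside 14.7% and 13.9%. Fads2, the front-end desaturase that opens the route to polyunsaturated fatty acids, read 8.58, 8.73 and 8.70 in Tconv, 6.77, 6.94 and 6.91 with purified TGFβ and 5.81, 5.94 and 5.51 with lysate. The 3 groups stood far apart. Fads2 fell 3.48-fold with purified TGFβ (log2 change -1.80 ± 0.11, SE, adjusted p = 1.19e-07) and 7.57-fold with lysate (-2.92 ± 0.11, adjusted p = 5.73e-09), and its other 2 probe sets were called lower in both comparisons. Its neighbour in the genome and partner in the pathway, Fads1, did not pass (0.06 and -0.37). A second Fads1 probe set, which read 6.39 in Tconv, was called lower in both (-0.67 and -0.92).

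Elovl6, which elongates palmitate, went the other way. It read 6.88, 6.99 and 7.06 in Tconv, 8.44, 8.41 and 8.42 with purified TGFβ and 8.15, 8.13 and 8.10 with lysate. All iTreg arrays lay more than a log2 unit above Tconv, with rises of 2.73-fold and 2.22-fold (adjusted p = 3.99e-08 and 2.76e-07). The enzymes that make palmitate were lower: Acaca, acetyl-CoA carboxylase, fell by 0.52 and by 0.66, and Fasn, fatty acid synthase, fell by 0.58 in both comparisons from 10.29 ± 0.35 in Tconv. These falls were close to the cutoff, and without Tconv replicate 3 Fasn was at -0.45 in both comparisons and Acaca at -0.41 with purified TGFβ. Acly, which supplies the acetyl-CoA, did not pass (-0.14 and -0.35). Another Acly probe set, of the kind that can cross-hybridise, read 10.94 in Tconv and was called lower with lysate (-0.59).

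The 2 stearoyl-CoA desaturase genes, which make monounsaturated fatty acids, parted between the cultures. Scd1 read 8.66, 8.45 and 8.45 in Tconv, 9.91, 10.06 and 10.09 with purified TGFβ and 8.13, 8.17 and 8.07 with lysate. It stood above all Tconv arrays with purified TGFβ and below all of them with lysate. The rise with purified TGFβ was 2.83-fold (log2 change 1.5 ± 0.09, SE, adjusted p = 1.00e-07), and the change with lysate was -0.40 ± 0.09, inside the fold cutoff. A second Scd1 probe set was called higher with purified TGFβ (0.55) and lower with lysate (-1.20). Scd2 read 12.32, 12.09 and 12.04 in Tconv, 12.13, 12.34 and 12.11 with purified TGFβ and 11.57, 11.59 and 11.53 with lysate. All 3 lysate arrays lay below the Tconv range, with a fall of 1.51-fold (adjusted p = 4.12e-04), and its 2 other probe sets did not pass against Tconv.

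Of the LXR targets, 2 of 3 rose with purified TGFβ, beside 14.5% of all genes. With lysate none passed, where 13.9% of all genes rose and 14.7% fell. Abca1, the transporter that hands cholesterol to lipid-poor apolipoprotein, read 4.15, 3.65 and 4.21 in Tconv, 5.70, 5.73 and 5.83 with purified TGFβ and 4.29, 4.24 and 4.22 with lysate. Its rise with purified TGFβ was 3.36-fold (log2 change 1.75 ± 0.13, SE, adjusted p = 5.92e-07). Its other 2 probe sets read 2.75 to 3.20 in every group and did not pass, and with no detection calls in the table it was not settled whether the Tconv and lysate values were above background. Abcg1, which exports sterol to HDL particles, read 7.64, 7.65 and 7.41 in Tconv, 8.97, 8.90 and 8.92 with purified TGFβ and 7.45, 7.62 and 7.57 with lysate. The lysate arrays lay within the Tconv range. All purified-TGFβ arrays lay above that range, and their mean was 2.57-fold above the Tconv mean (adjusted p = 2.19e-07). A second Abcg1 probe set did not pass (0.21). Mylip, which encodes the ubiquitin ligase that degrades the LDL receptor, read 5.90, 5.96 and 5.97 in Tconv, 5.97, 5.97 and 5.86 with purified TGFβ and 5.84, 5.97 and 6.01 with lysate, and these ranges overlapped in full.

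**Figure D3:**
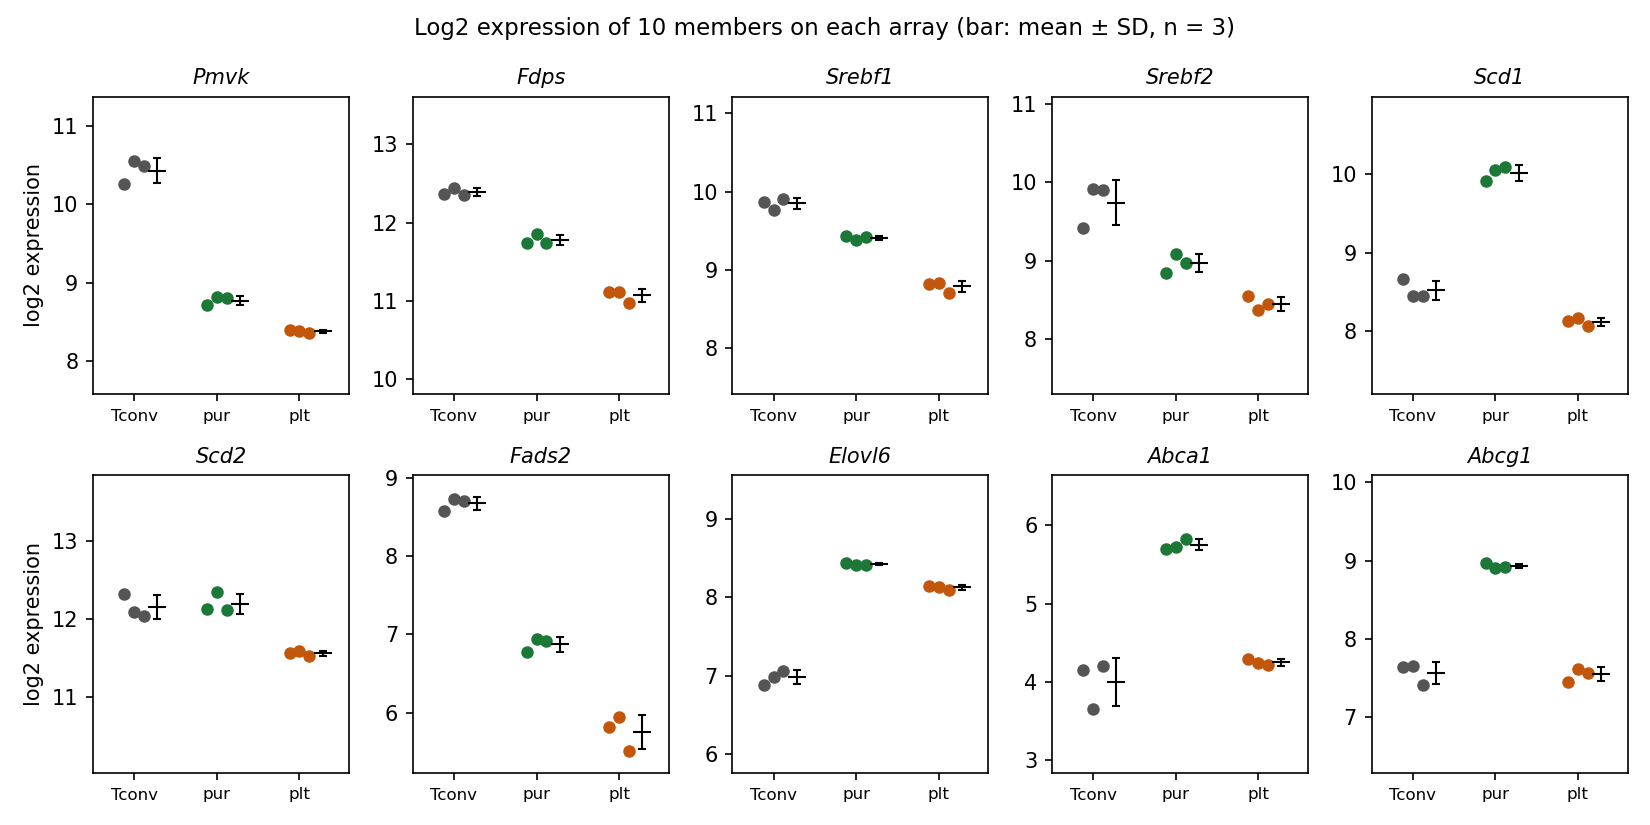
Log2 expression of 10 members on each of the 9 arrays (grey Tconv, green purTGFβ_iTreg marked pur, orange pltTGFβ_iTreg marked plt), with the mean and SD of each group (n = 3) as a bar to the right and the same span on every vertical axis. Pmvk, Fdps, Srebf1, Srebf2 and Fads2 step down from Tconv to purified TGFβ to lysate, Elovl6 is high in both iTreg groups, and Scd1, Abca1 and Abcg1 are high with purified TGFβ only.

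The iTreg groups were then compared with each other, to ask how these genes differed between the lysate and purified-TGFβ cultures. The source of TGFβ cannot be told apart here from the other contents of the lysate or from the TGFβ1 amount. With lysate 13 of the 35 members were lower than with purified TGFβ and none was higher, where 2.57% of all genes were called lower and 1.54% higher. The median log2 difference of the members was -0.36 and that of all genes 0.01. Mean levels were lower with lysate for 32 of the 35 members (46.9% of all genes), and for 29 members every lysate array lay below every purified-TGFβ array (14.6% of all genes). Under no alternative tried was any member called higher. This comparison shares its arrays with those against Tconv, so the members' values belong together.

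The differences beyond a log2 unit were at the desaturase genes Scd1 and Fads2 and the LXR targets Abca1 and Abcg1. Scd1 was 3.73-fold lower with lysate (log2 difference -1.9 ± 0.09, SE, adjusted p = 3.13e-07) and Fads2 2.17-fold lower (-1.12 ± 0.11, adjusted p = 8.85e-05), each with all its probe sets called. Abca1 was 2.84-fold lower (-1.51 ± 0.13, adjusted p = 3.39e-05), with the lysate arrays in the dim range where detection was not settled. Abcg1 was 2.61-fold lower (-1.38 ± 0.09, adjusted p = 3.08e-06), while its second probe set, dim at 4.26 in Tconv, did not pass (-0.26). Scd2 was lower by 1.55-fold (adjusted p = 0.00229). Another Scd2 probe set was called lower as well (-0.73), and a further set, at -0.50, was not called. In the mevalonate arm 2 of 7 genes were lower, beside 2.57% of all genes. They were Fdps (-0.70 ± 0.08, adjusted p = 2.48e-04) and Mvd (-0.53 ± 0.10). A second Mvd probe set was at -0.46, inside the fold cutoff. In the squalene to cholesterol arm 4 of 11 were lower, beside the same 2.57%: Tm7sf2 (-0.69), Nsdhl (-0.60), Sc5d (-0.55) and Dhcr7 (-0.54). Without pltTGFβ_iTreg replicate 3 the values of Mvd and Dhcr7 were -0.48 and -0.49, inside the fold cutoff.

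Both SREBP genes were among the members lower with lysate. Srebf1 was 1.53-fold lower (-0.62 ± 0.08, adjusted p = 5.89e-04) and stayed called under each normalization, model and left-out array tried. Srebf2 was 1.43-fold lower (-0.51 ± 0.13, adjusted p = 0.0446), but its call was lost without replicate 2 or 3 of either iTreg group (adjusted p = 0.131 to 0.164) and with unmoderated variances (0.172), and its second probe set differed by only -0.09. Insig1 was lower by 0.36 (95% interval -0.54 to -0.18) with an adjusted p of 0.0275, inside the fold cutoff.

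A further 8 members had an adjusted p under 0.1 and a difference smaller than the fold cutoff, among them Fdft1 (-0.47), Fads1 (-0.44), Msmo1 (-0.42), Pmvk (-0.39) and Elovl6 (-0.30), all lower with lysate. Members without a detectable difference included Idi1 (0.03, 95% interval -0.17 to 0.23), Ggps1 (-0.02, -0.27 to 0.24), Fasn (0.01, -0.30 to 0.32), Scap (-0.04, -0.28 to 0.20) and Mylip (0.01, -0.17 to 0.18). These intervals bound any difference at well under a log2 unit.

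**Figure D4:**
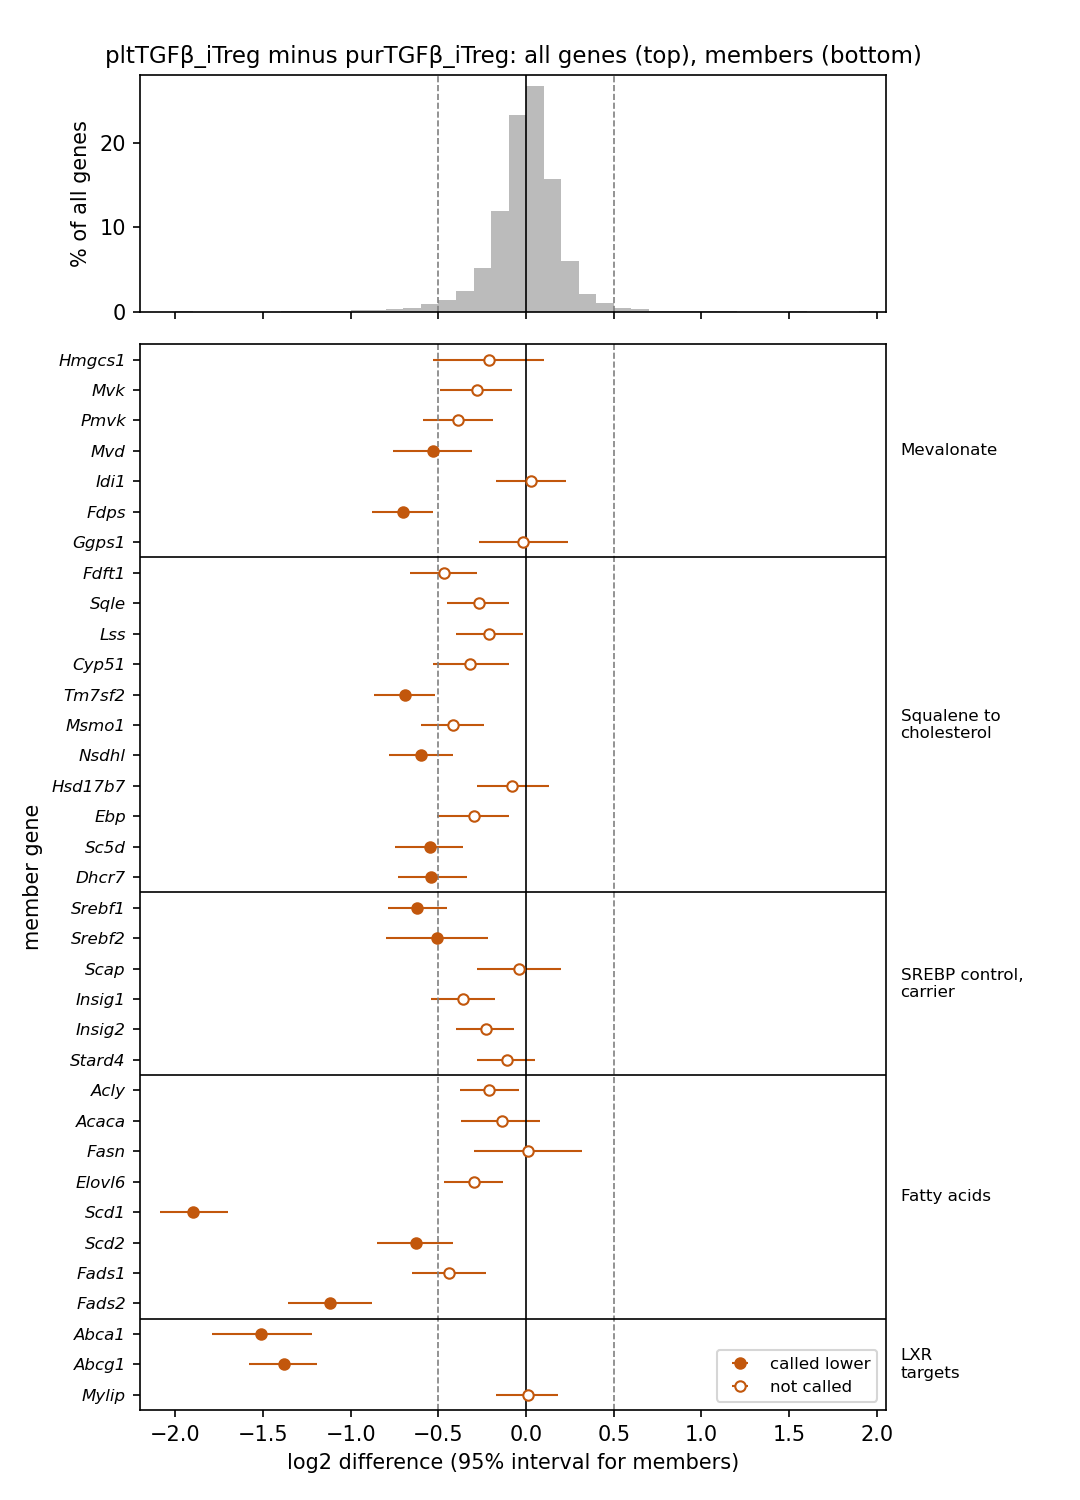
The lower panel gives the log2 difference pltTGFβ_iTreg minus purTGFβ_iTreg for each member with its 95% interval (filled points were called lower, open points were not called), and the upper panel the distribution of the same difference over all 18193 genes in steps of 0.1, with genes beyond 2 placed in the end bins. The members run from -1.9 for Scd1 to 0.03 for Idi1, and dashed lines mark 0.5 in either direction.

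Other genes of these pathways, listed by role but with earlier results of these data known, were read from the same fit. Of 18 other cholesterol genes listed, only 10 were measured. Among those 10, 4 rose and 1 fell with purified TGFβ, and 3 rose and 1 fell with lysate. Of all genes, 14.5% rose and 14.9% fell with purified TGFβ, and 13.9% rose and 14.7% fell with lysate. Between the iTreg groups 1 was lower with lysate, beside 2.57% of all genes. It was Npc1, the lysosomal cholesterol exporter, at -0.53, named because it was the only one. Rnf139, a sterol-sensing ubiquitin ligase, rose by 1.38 and by 1.04 on the log2 scale, and Mbtps2, the protease that makes the second SREBP cut, by 1.32 and by 1.05. Mbtps2 lies on the X chromosome, as Nsdhl and Ebp do, so the sex of the mice bears on its comparisons with Tconv in particular. Npc2, a lysosomal cholesterol carrier, fell by 0.63 and by 0.64. Erlin2, of the endoplasmic reticulum, rose by 0.68 with lysate.

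Of 20 other fatty acid genes, 6 fell and 3 rose with purified TGFβ, beside 14.9% and 14.5% of all genes. With lysate 6 fell and 2 rose, beside 14.7% and 13.9%. Between the iTreg groups 4 were lower and none higher with lysate, beside 2.57% and 1.54%. Acss2, which makes acetyl-CoA from acetate, fell 2.63-fold and 3.48-fold, and Slc25a1, the mitochondrial citrate carrier, 2.15-fold and 3.08-fold. Lpin1, a phosphatidate phosphatase, fell 1.51-fold with purified TGFβ and 2.63-fold with lysate, a difference between the iTreg groups of -0.80 ± 0.08 (adjusted p = 6.42e-05). Acsl3, an acyl-CoA synthetase, rose 2.92-fold and 1.53-fold and was lower with lysate by 0.93. Of 10 other LXR genes listed, 8 were measured. In each comparison with Tconv 3 of them fell and none rose. The shares of all genes were 14.9% lower and 14.5% higher with purified TGFβ, and 14.7% and 13.9% with lysate. Between the iTreg groups none differed, where 2.57% of all genes were lower and 1.54% higher. That count was thus close to the general shares. The retinoid X receptor genes Rxra and Rxrb, partners of LXR, fell by 1.21 and by 0.58 with purified TGFβ and by 0.98 and by 0.88 with lysate. Lpcat3, an LXR target that remodels phospholipids, fell by 0.78 with lysate, and Lpl, lipoprotein lipase, by 0.70 with purified TGFβ from a dim reading of 3.78.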

How the data were processed

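Total RNA, extracted with Trizol, was hybridised to 9 Affymetrix mouse genome arrays. The deposited values are log2 expression levels that the authors made with Affymetrix Expression Console and RMA, per the series' design text, which also names an ANOVA in Partek Genomics Suite 6.6 with a 1.4-fold cutoff (log2 ratio beyond 0.5) and a false discovery rate under 10%. RMA compresses differences between dim probe sets, and the table has no detection calls. Of 45101 probe sets, 64 control probe sets were left out, and the remaining 45037 were fitted in limma 3.58.1 (R 4.3.3) with 1 mean per group over all 9 arrays, moderated variances and Benjamini-Hochberg adjustment over all 45037. In the platform annotation 34945 probe sets had 1 gene symbol, 932 had several and 9160 had none, and only the first kind was named.

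The design text calls the 3 arrays of a group biological replicates, but the sources used here do not tie them to separate animals, so p-values measure the spread between these arrays. Precision is limited by 3 arrays a group, for which a permutation test could not go below p = 0.1. Intervals are 95% intervals from the fit. The members and the gene lists were chosen with earlier results of these data known. Values on every array are given for the 3 members of lowest adjusted p in each of 5 roles and for Srebf1, Srebf2, Insig1, Insig2, Scd1 and Scd2, and up to 4 genes of lowest adjusted p were named from each list of other pathway genes. The fit was tested on simulated data in which 200 probe sets changed, far fewer than were called against Tconv here, with no shift in array scale. Changes of 0.6 on the log2 scale were called in 52% to 66% of cases, and changes of 1 in 92% to 95%. Changes near the fold cutoff were thus often missed. Alternatives covered normalization, the filter on dim probe sets, the variance model, the test, the samples fitted, the probe set per gene, the cutoffs and leaving out each array. Promoter sequences came from RefSeq (GRCm38.p6).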

Additional observations from a re-analysis of the deposited data

Results flagged for a closer look

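Scd1 stood out because the comparisons with Tconv ran opposite ways in the iTreg groups: all 3 arrays with purified TGFβ lay above all Tconv arrays (log2 change 1.5) and all 3 arrays with lysate lay below them (-0.40). The test of the difference between the iTreg groups gave -1.9 on the log2 scale (limma, adjusted p = 3.13e-07), and the second Scd1 probe set gave -1.75.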

How the results depend on the processing

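The cutoffs moved the counts of members most. At adjusted p under 0.05 and a log2 change beyond 1, 4 members were lower with purified TGFβ than in Tconv, 10 were lower with lysate than in Tconv, and 4 were lower with lysate than with purified TGFβ, beside 3.39%, 3.07% and 0.539% of all genes. With no fold cutoff 11 members were higher with purified TGFβ and 5 with lysate than in Tconv, beside 20.8% and 20.2% of all genes. At that cutoff 15 of the 35 members were lower with purified TGFβ and 21 with lysate than in Tconv, beside 42.6% and 40.3%. With purified TGFβ the lower count was thus close to the share of all genes. Between the iTreg groups 21 members were lower with lysate, beside 5.49% of all genes. Taking the probe set of highest variance per gene gave 5 members higher with lysate than in Tconv, and turned Fads1 with purified TGFβ to -0.67. Leaving out each array in turn gave 10 to 12 members lower and 7 to 8 higher with purified TGFβ, 15 to 16 lower and 3 to 4 higher with lysate, and 10 to 14 lower and 0 higher between the iTreg groups. With the replicate number of the labels as a block, the counts were 12 lower and 7 higher, 16 and 3, and 13 and 0, and 0 member calls changed. The replicate numbers share only a number: correlations of same-numbered arrays ran from -0.12 to 0.09 with purified TGFβ, from -0.10 to 0.09 with lysate, and from 0.09 to 0.26 between the iTreg groups, where 6 of 6 arrays correlated best with their own number, which is a hint from the data only. Of the calls made as reported, 16 of 19, 15 of 19 and 8 of 13 were the same under all alternatives of fit, scaling and probe set and without each array, the cutoffs apart. Averaging a gene's probe sets, dim ones included, ended 9 calls. Against Tconv these were Fdps (-0.33) and Acaca with purified TGFβ, and Acaca, Msmo1 and Scd2 with lysate. Between the iTreg groups they were Fdps (-0.33), Mvd, Sc5d and Srebf2, and 9 members stayed lower with lysate. The cause of the changes was not tested.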

Other observations

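Genes of mitochondrial fatty acid oxidation were read from the same fit. Of 10 measured, 1 rose and 1 fell with purified TGFβ against Tconv, beside 14.5% and 14.9% of all genes. With lysate 2 fell, beside 14.7% of all genes, so the counts against Tconv were close to the general shares. Between the iTreg groups 2 were lower with lysate, beside 2.57% of all genes. Cpt1a, which loads fatty acids for entry into mitochondria, averaged 7.68 in Tconv, 8.29 with purified TGFβ and 7.61 with lysate, a rise of 1.52-fold with purified TGFβ (limma, adjusted p = 2.60e-04) and a difference of -0.67 between the iTreg groups (adjusted p = 0.0012). Cpt2, its partner on the inner membrane, fell by 0.76 with lysate (adjusted p = 3.10e-05) and was lower by 0.51 with lysate than with purified TGFβ. Acadvl, the dehydrogenase for very long chains, fell by 0.67 with purified TGFβ and by 0.64 with lysate, and its difference between the iTreg groups was 0.03.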
